A study of Sus scrofa with 11 samples.

Results

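The EGF receptor family and its ligands were measured in pig skin wounds. The genes were chosen by symbol, and 10 of the 30376 genes in the deposited values belong to the set. These are the receptors EGFR, ERBB2, ERBB3 and ERBB4 and the ligands HBEGF, AREG, EREG, TGFA, BTC and NRG1. RNA came from 7 wounds of a diabetic and 4 wounds of a non-diabetic female Yucatan minipig, taken on day 10 after full-thickness 2 cm punch wounding of the back, with 1 library per wound. Diabetes had been induced with streptozotocin, which destroys insulin-producing beta cells, in a minipig of 6 months of age, and insulin was stopped before wounding. The age of the non-diabetic minipig is not given in the sources used here. After induction the diabetic minipig had also been given sucrose solution and later daily insulin. No transgene or further experimental treatment was described for either minipig. Each group is therefore 1 animal: diabetes and the animal cannot be told apart, and every p-value measures only the spread between wounds.

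The ERBB receptors are membrane tyrosine kinases that work in pairs. EGFR binds EGF, HBEGF, AREG, EREG, TGFA and BTC. ERBB3 and ERBB4 bind neuregulins such as NRG1, while ERBB2 has no known ligand of its own and serves as the preferred partner of the others. The ligands are made as membrane precursors and released by proteases of the ADAM family, and binding drives RAS-ERK and PI3K-AKT signalling. In skin, keratinocytes both make EGFR ligands and respond to them, and the pathway is known for promoting keratinocyte migration and proliferation over a wound bed.

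Library depth on genes ranged from 28314785 to 40168372 reads, and the group medians were 34596338 (diabetic) and 33465950 reads (non-diabetic). Levels are given as FPKM, fragments per kilobase of annotated exon scaled by library size, so that genes of different length can be compared, and 1 read on a gene of 2 kb was worth 0.0112 to 0.0194 FPKM. Diabetic replicate 4 and non-diabetic replicate 1 stood apart from the other wounds as epidermis-poor. Their mean log2(FPKM + 0.5) over 24 keratinocyte marker genes was 0.82 and 1.64, against 4.70 to 6.20 in the other 9 wounds. Keratin 5 (KRT5), the keratin of basal keratinocytes, was at 29.2 and 211 FPKM in these wounds and at 817 to 2861 FPKM in the others. Results that rest on these wounds are therefore given with and without them. In bulk tissue, fewer cells of a type and less RNA per cell cannot be told apart.

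No receptor or ligand that could be tested was called different between diabetic and non-diabetic wounds. Levels were compared on log2(FPKM + 0.5) with limma for genes at 0.5 FPKM or more in at least 4 libraries, and calls required a log2 fold change beyond 0.5 in size together with an adjusted p under 0.05. All genes but ERBB4 passed this filter on low values. Of these 9 genes, 0 were called, against 3.00% of the 13956 genes tested, and 0 had an unadjusted p under 0.05, either with limma or with voom on the reads recovered from the values. The adjusted p-values (limma) ran from 0.672 to 0.989. The median log2 fold change of the 9 genes was 0.27, with 7 above 0, and that of all tested genes was 0.01. The values of the 2 groups overlapped in each of the 9 genes, so that 0 were free of overlap, against 5.65% of all genes tested. In the 9 wounds without the epidermis-poor ones, 0 of the genes were called as well. Each gene was also compared by an exact permutation test (two-sided, 330 splits of the wounds, smallest possible p 0.00303), and the lowest p of the 10 genes was 0.4, for BTC.

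**Figure D1:**
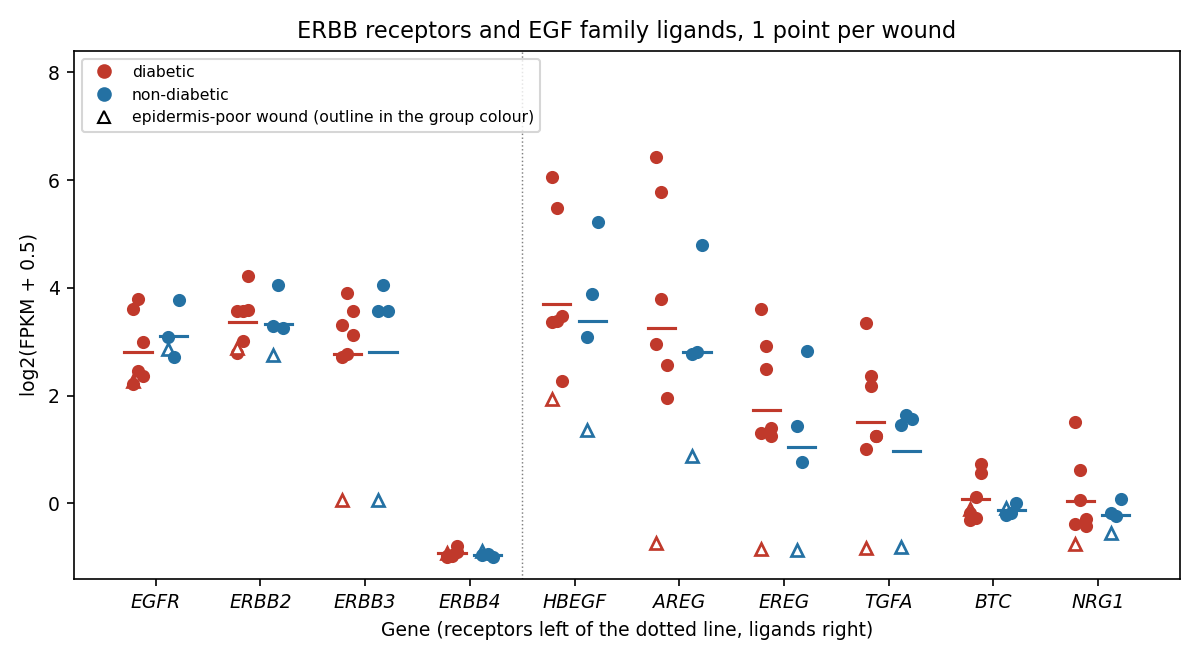
Level of each receptor and ligand in the 11 wounds, as log2(FPKM + 0.5), with red points for diabetic and blue for non-diabetic wounds, open triangles for the 2 epidermis-poor wounds and short bars for group means. Red and blue points overlap in every gene. The triangles are the lowest points for ERBB3, HBEGF, AREG, EREG, TGFA and NRG1, with small gaps to the next point for NRG1 and HBEGF.

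Among the receptors, ERBB2, ERBB3 and EGFR had levels of the same order and ERBB4 was close to 0. The mean over the 11 wounds was 10.3 FPKM for ERBB2, 8.72 for ERBB3, 7.68 for EGFR and 0.0228 for ERBB4. The first 3 overlapped widely between wounds: ERBB2 was the most abundant receptor in 5 wounds, EGFR in 3 and ERBB3 in 3. The receptors together added up to 11.8 to 39.2 FPKM per wound.

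EGFR, the receptor of most of these ligands, lies on chromosome 9 (Sscrofa11.1, chr9:139302410-139474632, plus strand). It was at 4.12 to 13.3 FPKM in diabetic wounds, with a median of 4.96, and at 6.76, 6.09, 13.2 and 7.95 FPKM in the 4 non-diabetic wounds. Diabetic replicates 1 and 2 and non-diabetic replicate 3 were the highest. Diabetic replicates 4 to 7, at 4.12 to 4.96 FPKM, lay below all non-diabetic wounds. In their library names these carry the letter R, and diabetic replicates 1 to 3, at 7.47 to 13.3 FPKM, carry L. In the non-diabetic minipig, the L-named replicates 1 and 2 were at 6.76 and 6.09 FPKM. The R-named replicates 3 and 4 were higher, at 13.2 and 7.95 FPKM. The sources used here do not say what the letters mean. Diabetic replicate 3, at 7.47 FPKM, lay among the non-diabetic wounds. Its log2 fold change, diabetic against non-diabetic, was -0.30 with an SE of 0.34 and a 95% interval from -1.04 to 0.45 (limma, adjusted p = 0.701).

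ERBB2, the shared partner receptor, lies on chromosome 12 (chr12:22591621-22621384, minus strand). It ranged from 6.44 to 18.0 FPKM in diabetic wounds, with a median of 11.4, and was at 6.29, 16.0, 9.005 and 9.28 FPKM in the non-diabetic wounds. Its group means were nearly level, with a log2 fold change of 0.04 and an SE of 0.29 (limma, adjusted p = 0.964), and the interval from -0.60 to 0.68 still allowed levels up to 1.597-fold higher in diabetic wounds.

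ERBB3, a neuregulin receptor with a weak kinase that signals mainly through PI3K, lies on chromosome 5 (chr5:21474218-21495040, plus strand). Diabetic replicate 4 was at 0.545 and non-diabetic replicate 1 at 0.541 FPKM, while the other diabetic wounds ranged from 6.07 to 14.5 and the other non-diabetic wounds from 11.4 to 16.1 FPKM. The log2 fold change was -0.03 (SE 0.83) over all wounds and -0.50 (SE 0.26, 95% interval -1.07 to 0.08, limma adjusted p = 0.397) without the epidermis-poor wounds. The interval was narrower without those wounds, and neither comparison passed the threshold. With the epidermal marker level as a covariate over all wounds, the log2 fold change was -0.62 (95% interval -1.18 to -0.056, limma unadjusted p = 0.0340, adjusted p = 0.208).

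ERBB4 spans more than a megabase of chromosome 15 (chr15:113966573-115096984, minus strand). It had 0 to 25 reads per library, which is at most 0.0767 FPKM, and the exact permutation test gave p = 0.667 for the difference between groups. Pseudogenes that overlap the locus had 0 FPKM in every wound.

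Among the ligands, AREG and HBEGF were the most abundant, and their values varied more between wounds than those of the receptors. The mean over the 11 wounds was 19.2 FPKM for AREG and 19.0 for HBEGF, followed by EREG at 3.64, TGFA at 2.83, NRG1 at 0.575 and BTC at 0.532. The values of AREG and HBEGF overlapped over most of their range, as did those of EREG and TGFA and those of NRG1 and BTC. HBEGF was the most abundant of the EGFR ligands in 8 wounds and AREG in the other 3. The sum of the 5 EGFR ligands ran from 3.95 to 174 FPKM, a wider range than that of the receptors.

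AREG, EREG and BTC lie in 1 cluster with EPGN on chromosome 8, within 430.671 kb. AREG (chr8:70417935-70428106) and EREG (chr8:70351316-70372530) are on the plus strand, 45.405 kb apart, and BTC (chr8:70645721-70697538) is on the minus strand. HBEGF lies on chromosome 2 (chr2:142102455-142115192, minus strand), TGFA on chromosome 3 (chr3:71948232-72054257, plus strand) and NRG1 on chromosome 15 (chr15:52625550-53688003, minus strand). The 250 bases before the annotated start are shown for AREG, EREG and HBEGF, the 3 ligands with the widest range in FPKM. They were read from the RefSeq assembly of Sscrofa11.1, at chr8:70417685-70417934 (plus strand), chr8:70351066-70351315 (plus strand) and chr2:142115193-142115442 (minus strand), 5′ to 3′, and capitals mark the motifs found.
AREG: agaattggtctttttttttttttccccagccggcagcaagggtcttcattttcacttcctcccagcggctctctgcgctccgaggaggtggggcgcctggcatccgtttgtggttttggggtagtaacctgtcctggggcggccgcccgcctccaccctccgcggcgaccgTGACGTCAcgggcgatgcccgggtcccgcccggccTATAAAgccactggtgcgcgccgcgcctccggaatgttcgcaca
EREG: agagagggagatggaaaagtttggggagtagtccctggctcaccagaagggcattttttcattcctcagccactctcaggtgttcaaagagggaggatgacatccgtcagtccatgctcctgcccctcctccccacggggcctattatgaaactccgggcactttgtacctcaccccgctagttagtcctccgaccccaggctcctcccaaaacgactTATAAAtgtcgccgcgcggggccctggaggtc
HBEGF: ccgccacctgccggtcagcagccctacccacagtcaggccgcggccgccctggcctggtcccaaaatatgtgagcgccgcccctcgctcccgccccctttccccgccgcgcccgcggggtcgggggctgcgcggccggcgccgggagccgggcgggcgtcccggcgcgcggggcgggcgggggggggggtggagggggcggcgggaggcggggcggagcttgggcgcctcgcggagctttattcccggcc
The motifs searched on both strands were the TATA box TATAAA, the cyclic AMP response element TGACGTCA, the AP-1 site TGANTCA and the ETS site CCGGAAG. AREG held TGACGTCA from 79 to 72 bases and TATAAA from 44 to 39 bases before its start, without overlap. EREG held TATAAA from 32 to 27 bases before its start. HBEGF held none of these letters in the window, nor did the other 7 genes. Among the same windows of 20667 protein-coding genes, 10.4% held TATAAA, 1.63% TGACGTCA, 5.48% TGANTCA and 7.48% CCGGAAG. A match is a match of letters in the reference and was not tested as a site.

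AREG, amphiregulin, was the most variable member. Its FPKM in diabetic replicates 1 to 7 was 85.8, 13.4, 5.41, 0.104, 54.2, 3.40 and 7.32, and in non-diabetic replicates 1 to 4 it was 1.33, 6.50, 27.4 and 6.35. Diabetic replicates 1 and 5 and non-diabetic replicate 3 were the highest, the epidermis-poor wounds of both groups were the lowest, and the groups overlapped through most of the range. The log2 fold change was 0.44 with an SE of 1.21, and the 95% interval from -2.21 to 3.08 spans 0.217-fold to 8.46-fold (limma, adjusted p = 0.892). Without the epidermis-poor wounds the log2 fold change of AREG was 0.45 (SE 0.97, limma adjusted p = 0.861). Its SD of log2(FPKM + 0.5) among diabetic wounds was 2.41, above that of 99.5% of the genes tested, whose median SD was 0.256. Among the 6 diabetic wounds that were not epidermis-poor, the SD was 1.81, above that of 99.8% of genes, and the FPKM spanned 25.2-fold.

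HBEGF, heparin-binding EGF, is a keratinocyte ligand of EGFR and ERBB4. Its FPKM in diabetic replicates 1 to 7 was 66.2, 9.99, 10.6, 3.33, 44.1, 4.30 and 9.75, and in non-diabetic replicates 1 to 4 it was 2.06, 14.3, 36.9 and 8.03. The same 3 wounds were highest as for AREG. The log2 fold change was 0.32 with an SE of 0.87 over all wounds (limma, adjusted p = 0.890) and -0.06 with an SE of 0.80 without the epidermis-poor wounds (adjusted p = 0.979).

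EREG, epiregulin, was at 0.0572 to 11.7 FPKM in diabetic wounds, with a median of 2.15, and at 0.0476, 1.21, 6.61 and 2.197 FPKM in non-diabetic wounds. Its highest values were in diabetic replicates 1 and 5 and non-diabetic replicate 3, as for AREG and HBEGF. The log2 fold change was 0.69 (SE 0.82, 95% interval -1.11 to 2.50, limma adjusted p = 0.711). Without both epidermis-poor wounds it was 0.49, and without non-diabetic replicate 1 alone it was 0.056.

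TGFA, transforming growth factor alpha, was at 0.0662 to 9.72 FPKM in diabetic wounds, with a median of 1.88, and at 0.0734, 2.63, 2.47 and 2.25 FPKM in non-diabetic wounds. Diabetic replicate 1 was the highest, and 3 of the 4 non-diabetic wounds lay within the range of 1.501 to 9.72 FPKM of the diabetic wounds that were not epidermis-poor. Diabetic against non-diabetic, the log2 fold change was 0.54 (SE 0.71, limma adjusted p = 0.743). Without the epidermis-poor wounds it was 0.34 (SE 0.46, limma adjusted p = 0.769).

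NRG1, a neuregulin for ERBB3 and ERBB4, was at 0.0917 to 2.34 FPKM in diabetic wounds, with a median of 0.322, and at 0.181, 0.348, 0.563 and 0.382 FPKM in non-diabetic wounds. The values are low per length, since the annotated exons of NRG1 add up to 18896 bases, but rest on 55 to 1579 reads. The groups overlapped, with a log2 fold change of 0.27 (SE 0.37, limma adjusted p = 0.759). It was 0.29 (SE 0.40, limma adjusted p = 0.769) without the epidermis-poor wounds.

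BTC, betacellulin, was at 0.304 to 1.17 FPKM in diabetic wounds, with a median of 0.429, and at 0.439, 0.381, 0.507 and 0.360 FPKM in non-diabetic wounds. Diabetic replicates 3 and 6 were the highest, which are not the wounds with the most AREG. Between the groups the log2 fold change was 0.20 (SE 0.21, 95% interval -0.26 to 0.65, limma adjusted p = 0.672), and 46 to 180 reads lay behind each value.

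**Figure D2:**
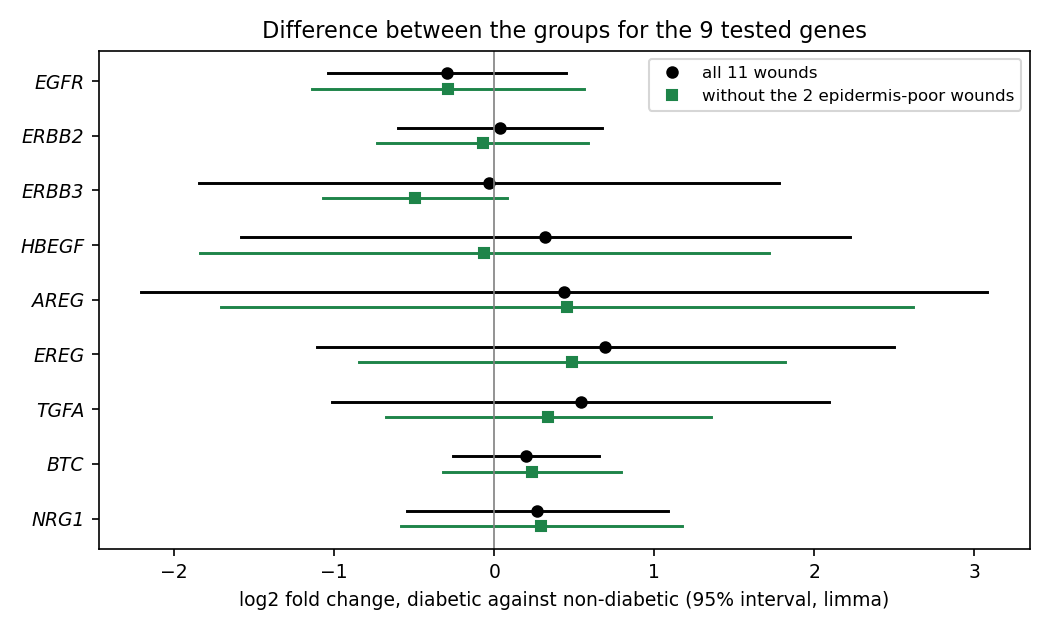
Log2 fold change of the 9 tested genes, diabetic against non-diabetic, with 95% intervals from limma, for all 11 wounds (black circles) and without the 2 epidermis-poor wounds (green squares). Every interval crosses 0; that of AREG is the widest, from -2.21 to 3.08, and that of ERBB3 narrows to -1.07 to 0.08 without the epidermis-poor wounds.

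The epidermis-poor wounds were the lowest of all wounds for ERBB3 and for 5 of the 6 ligands. These 2 wounds were singled out in earlier work on the same values for their low epidermal genes, so the comparison is a description and no test was made. For 6 of the 9 tested genes, ERBB3, HBEGF, AREG, EREG, TGFA and NRG1, both epidermis-poor wounds lay below all other wounds, which held for 10.8% of all genes tested. For 0 of the 9 genes did both lie above all others, against 5.65% of all genes. The mean log2(FPKM + 0.5) of the 2 wounds minus that of the others was -3.69 for AREG, -3.34 for ERBB3, -2.86 for EREG, -2.60 for TGFA, -2.38 for HBEGF and -0.74 for NRG1. EGFR (-0.44), ERBB2 (-0.66) and BTC (-0.13) had at least 1 epidermis-poor wound inside the range of the others. The median over the 9 genes was -2.38, and over all tested genes it was 0.00.

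Both minipigs contributed 1 such wound, and the order of the genes was not the same in each. AREG was at 0.104 FPKM (4 reads) in diabetic replicate 4, where the median of the other 9 wounds was 70.2 times as high, and at 1.33 FPKM (46 reads) in non-diabetic replicate 1, where it was 5.50 times as high. ERBB3 was 20.9 and 21.0 times as high at the median of the other wounds as in these. EREG, with 8 and 6 reads, and TGFA, with 12 reads in each, were also nearly equal in the pair. The share of ERBB3 in the summed receptor FPKM was 4.64% and 3.97% in the epidermis-poor wounds and 28.1% to 42.1% in the others. HBEGF made up 83.5% and AREG 2.62% of the EGFR ligand FPKM in diabetic replicate 4. In non-diabetic replicate 1 they made up 52.2% and 33.6%, inside the ranges of the other 9 wounds (29.7% to 57.1% and 26.02% to 49.4%).

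Keratinocyte markers were low in the epidermis-poor wounds, which were singled out for low epidermal genes. The counts of keratinocyte markers here therefore restate that choice and do not show that they vary with the members. In the epidermis-poor wounds, 8 of 9 tested basal and 14 of 15 tested suprabasal keratinocyte markers lay below all other wounds. The summed FPKM of the basal list was 60.4 and 249 there against 933 to 3164 in the others, and that of the suprabasal list was 19.2 and 59.1 against 929 to 6952. Loricrin (LOR) was at 0 in both, involucrin (IVL) at 0 in diabetic replicate 4 and desmocollin 1 (DSC1) at 0 in non-diabetic replicate 1. Of the 5 tested neutrophil markers, 4 lay below all other wounds, 3 of which are S100 genes that keratinocytes of injured skin also express, and the list summed to 41.4 and 300.2 FPKM against 3800 to 12589. Of 8 fibroblast markers, 0 lay below and 1 above all other wounds. The part of these cell types in the ligand and ERBB3 levels was not tested.

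Among the 9 wounds that were not epidermis-poor, no member had a relation with the level of keratinocyte markers that passed the test. Pearson's r of each gene with the marker level ran from -0.40 for HBEGF to 0.50 for BTC, and 0 of the 9 relations passed an adjusted p of 0.05 by exact permutation. AREG had r = -0.24 and rho = -0.25 (exact permutation p = 0.530 and 0.521, adjusted p = 0.984 and 0.781). Leaving out the 2 wounds farthest from the median marker level, r was -0.04. All 9 wounds come from 2 minipigs, and r within the 6 diabetic wounds was -0.57.

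AREG, HBEGF, EREG, TGFA and NRG1 varied together across the same 9 wounds, and ERBB2 ran the other way. The 36 pairs of tested members were compared by exact permutation, and 13 passed an adjusted p of 0.05 for Pearson's r and 8 for Spearman's rho. These relations were computed after the values had been seen. Of the 10 pairs among the 5 ligands, 9 passed for r and 5 for rho, and of the 5 pairs of ERBB2 with these ligands, 4 passed for r and 3 for rho. The lowest absolute r that passed was 0.80, which 5.21% of all pairs of tested genes reached over the same wounds. HBEGF and AREG had r = 0.95 and rho = 0.82 (exact permutation p = 0.000336 and 0.0108, adjusted p = 0.00538 and 0.0485), with r = 0.86 without the 2 wounds farthest from the median of HBEGF and r = 0.97 within the 6 diabetic wounds. Diabetic replicates 1 and 5 and non-diabetic replicate 3 were highest for both genes. Leaving out 2 wounds cannot remove all of these, and the diabetic wounds keep replicates 1 and 5. Such r values therefore do not show the relation outside those wounds, and the same limit holds for the other pairs with AREG. AREG and NRG1 had r = 0.93 and rho = 0.88 (exact permutation p = 0.000113 and 0.00308, adjusted p = 0.00407 and 0.0369), with r = 0.89 without the 2 farthest wounds and 0.95 within the diabetic wounds. AREG and EREG, neighbours in the cluster, had r = 0.93 and rho = 0.78 (exact permutation p = 0.000581 and 0.0172, adjusted p = 0.00538 and 0.0689), with r = 0.84 without the 2 farthest wounds and 0.95 within the diabetic wounds. The relation of AREG with TGFA rested on 2 wounds, with r = 0.82 and rho = 0.72 (exact permutation p = 0.00711 and 0.0369, adjusted p = 0.0256 and 0.121) and r = 0.48 without them, while r within the 6 diabetic wounds was 0.88. BTC, in the same cluster, had r = -0.60 and rho = -0.70 with AREG, and neither passed the adjustment (exact permutation p = 0.0776 and 0.0433, adjusted p = 0.162 and 0.1298).

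ERBB2 was lower where AREG was higher. Their r was -0.86 and rho -0.87 (exact permutation p = 0.00279 and 0.00451, adjusted p = 0.0143 and 0.0406), with r = -0.72 without the 2 wounds farthest from the median of ERBB2 and -0.94 within the diabetic wounds. ERBB2 with NRG1 had r = -0.80 and rho = -0.92 (exact permutation p = 0.00510 and 0.00131, adjusted p = 0.0230 and 0.0369), with r = -0.70 without the 2 farthest wounds and -0.88 within the diabetic wounds. ERBB2 varied less than AREG but more than most genes. Among the 6 diabetic wounds, its SD of log2(FPKM + 0.5) was 0.501, against 1.81 for AREG. That of ERBB2 was above the SD of 87.7% of the genes tested. Diabetic replicate 1, with the most AREG of the 9 wounds, had 6.44 FPKM of ERBB2, and diabetic replicate 6, with the least, had 18.0 FPKM. EGFR and ERBB3 had no relation with AREG that passed the adjustment (r = 0.43 and -0.27, exact permutation p = 0.248 and 0.483, adjusted p = 0.340 and 0.579).

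**Figure D3:**
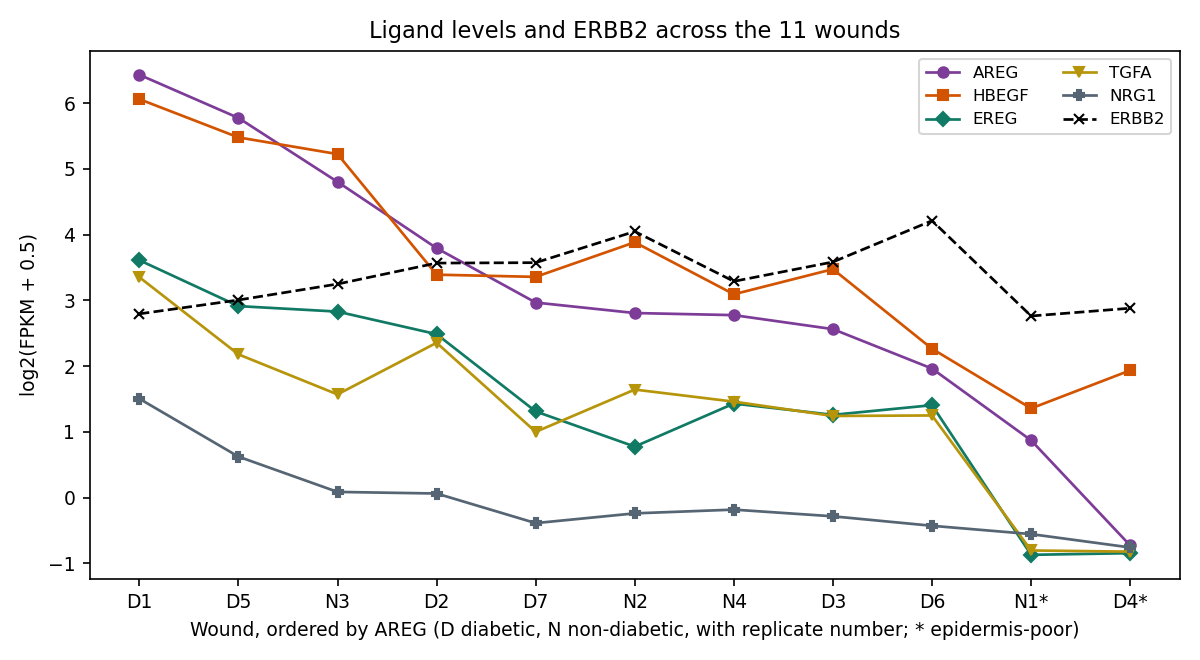
log2(FPKM + 0.5) of 5 ligands (solid lines) and of ERBB2 (dashed) in each wound, ordered from the highest to the lowest AREG, where D and N give group and replicate and an asterisk the epidermis-poor wounds. AREG falls from left to right by the ordering, and the other ligands tend to fall with it but not at every step. ERBB2 is lowest among the 9 other wounds at diabetic replicate 1 and highest at diabetic replicate 6. Diabetic and non-diabetic wounds are interleaved.

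The genes most like each member over the same 9 wounds are given as a description. For AREG they were HAS3, a hyaluronan synthase, with r = 0.99, TNFAIP2 with r = 0.98 and CSF3, the granulocyte colony-stimulating factor, with r = 0.98. For HBEGF they were TAF9, the survival factor MCL1 and PHLDA2 (r = 0.98, 0.97 and 0.97). For EREG they were PHLDA1, DNAAF2 and SNAPC1 (r = 0.96, 0.95 and 0.94), and for NRG1 IMP3, the splicing factor TRA2B and PHLDA1 (r = 0.98, 0.97 and 0.97). TGFA was most like the BMP antagonist GREM1, PUM3 and MRPS30 (r = 0.98, 0.97 and 0.96). BTC had less similar genes, ABHD17B, ASB14 and CSF1 (r = 0.89, 0.89 and 0.88). Of the receptors, EGFR was most like SHOC2, a scaffold of RAS-RAF signalling, BBX and CUL5 (r = 0.99, 0.98 and 0.98), ERBB2 like BAIAP3 and PSD (r = 0.97 for each), and ERBB3 like PDZK1IP1, HOOK1 and CCDC43 (r = 0.98, 0.95 and 0.92).

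Of the other genes of the pathway, 70 of 75 listed were tested. Of these, 1 was called higher and 1 lower in diabetic wounds, beside 188 higher and 231 lower of all 13956 genes. The share called was near the 3.00% called over all genes tested. The median log2 fold change of the 70 genes was -0.04. The gene called higher was ETV4, an ETS transcription factor induced by ERK signalling, at 4.53 to 6.77 FPKM in diabetic wounds and 2.00 to 3.42 FPKM in non-diabetic wounds, without overlap. Its log2 fold change was 0.82 (SE 0.15, limma adjusted p = 0.0137). Its close relative ETV5, named after its values were seen, had an adjusted p of 0.0350 (limma) at a log2 fold change of 0.45, under the fold threshold, and was called in 3 of 25 alternatives, with a pseudocount of 0.1 (0.56, adjusted p = 0.0364), with voom on recovered reads (0.58, adjusted p = 0.0411) and without non-diabetic replicate 2 (0.51, limma adjusted p = 0.0468). The gene called lower was ADAM19, a metalloprotease known to process neuregulins, at 11.5 to 19.5 FPKM in diabetic and 24.5 to 28.5 FPKM in non-diabetic wounds, without overlap and with a log2 fold change of -0.72 (SE 0.15, limma adjusted p = 0.0239). Without both epidermis-poor wounds neither was called, with log2 fold changes of 0.66 for ETV4 and -0.74 for ADAM19 and adjusted p-values (limma) of 0.0518 and 0.0619. ADAM19 also missed the threshold without diabetic replicate 3 (adjusted p = 0.0507, limma) and without any single non-diabetic replicate (0.0803, 0.0687, 0.0583 and 0.0542 for replicates 1 to 4).

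Ligand shedding was represented by 10 tested genes, of which 4 had positive and 6 negative log2 fold changes with a median of -0.14. ADAM12, a protease that can release HBEGF, had the largest change of the list at 3.86 ± 2.52 FPKM in diabetic (SD, n = 7) and 8.78 ± 2.09 FPKM in non-diabetic wounds (SD, n = 4), but did not pass the test (log2 fold change -1.25, SE 0.38, limma adjusted p = 0.101). Without diabetic replicate 1, at 8.20 FPKM the highest diabetic wound, it was called (log2 fold change -1.45, limma adjusted p = 0.0346), as it was with library weights (-1.42, adjusted p = 0.0189), and in none of the other 23 alternatives. ADAM12 was at 4.64 to 8.20 FPKM in the L-named diabetic wounds and at 1.77 to 2.37 FPKM in the R-named ones. In the non-diabetic minipig the L-named wounds were at 8.51 and 6.12 FPKM and the R-named ones at 11.2 and 9.33 FPKM. ADAM19 was also the most abundant of the list, with a mean of 19.7 FPKM. Of the other ligands of the family only NRG4 passed the filter, at 1.75 ± 0.76 FPKM in diabetic (SD, n = 7) and 1.03 ± 0.15 FPKM in non-diabetic wounds (SD, n = 4), and was not called (log2 fold change 0.49, limma adjusted p = 0.304). EPGN, which neighbours EREG in the cluster and was named after its values were seen, was under the filter, with 27 to 131 reads in 5 of the diabetic wounds, 4 reads in diabetic replicate 6, 2 to 23 reads in 3 non-diabetic wounds and 0 in both epidermis-poor wounds. It overlaps MTHFD2L on the same strand, so its reads may be shared.

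Receptor inhibitors and degradation genes (14 tested of 15) had 0 calls and a median log2 fold change of -0.13. The most abundant was ERRFI1, an inhibitor of EGFR that ERK signalling induces, at 23.8 ± 17.1 FPKM in diabetic (SD, n = 7) and 18.7 ± 8.44 FPKM in non-diabetic wounds (SD, n = 4). LRIG3 had the largest change, -0.46 (SE 0.23, limma adjusted p = 0.326). Adaptors and kinases (27 tested) had 0 calls and a median of -0.05, with AKT1 the most abundant at 72.7 FPKM over all wounds. The 18 ERK response and feedback genes had a median of 0.09 and ETV4 as their only call, and IER3 was the most abundant at 25.3 FPKM.

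**Figure D4:**
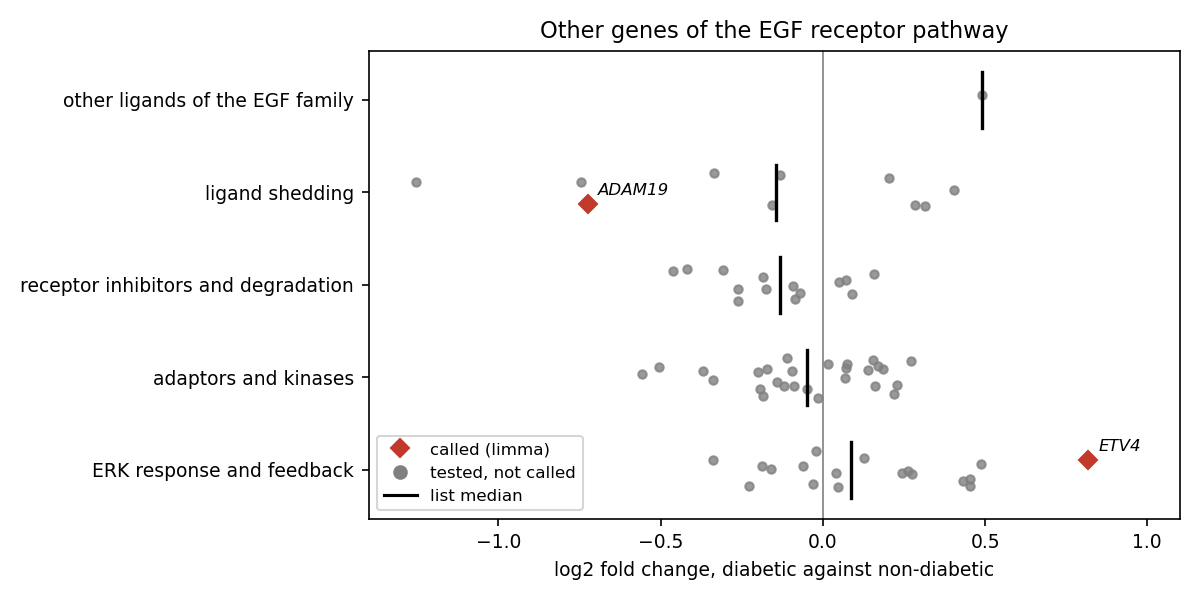
Log2 fold change, diabetic against non-diabetic, of the 70 tested pathway genes in 5 lists, with grey circles for genes not called, red diamonds for the called genes and black bars for list medians. ETV4 at 0.82 and ADAM19 at -0.72 are the called genes, and the list medians of more than 1 gene lie between -0.14 and 0.09.

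Some ERK response genes varied with AREG. Over the 9 wounds, 17 of the 18 had a positive r with AREG, as did 49.7% of the other 13955 tested genes, and 11 passed an adjusted p of 0.05 by exact permutation for r and 3 for rho, in relations that were computed after the values had been seen. An r as high as the lowest of these 11 was reached by 2.82% of all other tested genes, 393 in number. PHLDA1 had r = 0.97 and rho = 0.78 (exact permutation p = 0.000204 and 0.0172, adjusted p = 0.00367 and 0.0775), IER3 r = 0.96 and rho = 0.83 (exact permutation p = 0.000537 and 0.00827, adjusted p = 0.00484 and 0.0496) and the phosphatase DUSP6 r = 0.92 and rho = 0.87 (exact permutation p = 0.00101 and 0.00451, adjusted p = 0.00607 and 0.0406). Without the 2 wounds farthest from the median of AREG, r was 0.91, 0.84 and 0.76 for these genes and as low as 0.32 (EGR1) among the 11, and within the 6 diabetic wounds it was 0.96, 0.96 and 0.95. Either way, some of the 3 wounds with the most AREG remained, so these r values do not show relations outside them. IER3 was at 78.7, 63.1 and 36.8 FPKM in diabetic replicates 1 and 5 and non-diabetic replicate 3, the wounds with the most AREG, and at 10.99 to 16.7 FPKM in the other 6. ETV4 and ETV5 were not among the genes that passed (r = 0.38 and -0.07, exact permutation p = 0.310 and 0.849, adjusted p = 0.399 and 0.849).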

How the data were processed

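RNA was sequenced as poly-A libraries from 7 wounds of the diabetic and 4 wounds of the non-diabetic minipig. Per the submitters' processing notes and the paper's methods, fastp trimmed the reads, HISAT2 2.2.1 aligned them to the pig genome Sscrofa11.1, StringTie 2.2.3 assembled them, featureCounts 2.0.6 counted them, and the authors tested the counts with DESeq2. The deposited values used here are FPKM, which the authors scaled by gene length and library size, so the count test was replaced by limma on the log scale. The libraries mark strand, and the setting used in counting is not given in the sources used here. Multiplied by gene length, the values gave whole reads (within 0.05 reads) for 100.0% of genes in every library, from which depth was recovered (28314785 to 40168372 reads).

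The main test was limma (lmFit, then eBayes with a trend) on log2(FPKM + 0.5) for the 13956 genes at 0.5 FPKM or more in 4 libraries. Calls needed a Benjamini-Hochberg adjusted p under 0.05 and a log2 fold change beyond 0.5 in size. A fold change on this scale understates that of low genes. Exact permutation tests were two-sided. Relations between genes were computed over the 9 wounds that were not epidermis-poor, and p-values were adjusted over the 9, 36 or 18 relations of each family. The members and lists were chosen with earlier results of these data known. The genes named are the members, the called, most abundant and most changed genes of each list, the 3 genes most correlated with each member, marker genes and a few that the text marks as named after their values were seen. Some genes that this rule names are counted in the totals and not reported here. The alternatives tried were other settings of pseudocount, filter, scaling, trend and library weights, a replicate block, fewer wounds, and voom on recovered reads. Covariates were also tried, for the epidermal marker level and for the first letter of the library name. That letter is L or R, and its meaning is not given in the sources used here. The test was tried on simulated data. Fits used limma 3.58.1 in R 4.3.3. Permutations and figures used SciPy 1.17.1, pandas 2.3.3, numpy 2.4.6 and matplotlib 3.10.9 under Python 3.11.15.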

Additional observations from a re-analysis of the deposited data

Results flagged for a closer look

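For the members, 3 values lay far from the rest of their group on the log2(FPKM + 0.5) scale, by Dixon's ratio of the gap to the nearest wound over the range of the group. ERBB3 in diabetic replicate 4 was at 0.545 FPKM, against 6.07 FPKM in the nearest diabetic wound. ERBB3 in non-diabetic replicate 1 was at 0.541 FPKM, against 11.4 FPKM in the nearest. TGFA in non-diabetic replicate 1 was at 0.0734 FPKM, against 2.25 FPKM in the nearest. All 3 are values of the epidermis-poor wounds, which were singled out on these same values, so the flags add no support. Of the 20 groups of values examined, chance flags about 1 in 20 if the groups are independent. The groups share the same wounds, so the number of flags cannot be judged against that rate.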

How the results depend on the processing

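Under all 25 alternatives of the fit, 0 members were called, and the lowest adjusted p of a member was 0.208 (limma), for ERBB3 with the epidermal marker covariate, where its log2 fold change was -0.62 against -0.03. Of 223 fold changes of members under alternatives, 21 had the other sign and none was called. These were EGFR (0.056) and ERBB2 (-0.13) with the replicate block, ERBB2 (-0.033) with equal totals, ERBB3 (0.020) with a pseudocount of 0.1 and HBEGF (-0.028) with library weights. Without both epidermis-poor wounds they were ERBB2 (-0.072) and HBEGF (-0.063), and with the epidermal marker covariate ERBB2 (-0.094), HBEGF (-0.024) and AREG (-0.16). Leaving out 1 wound at a time gave ranges of -0.15 to 0.27 for ERBB2, -0.95 to 0.42 for ERBB3, -0.36 to 0.93 for HBEGF, -0.21 to 1.101 for AREG, 0.056 to 1.29 for EREG and -0.050 to 0.93 for TGFA, and the cause was not tested. Pathway calls (2) were 0 without both epidermis-poor wounds and 1 to 3 with 1 wound left out. Calls over all genes (419) were 822 with library weights, 212 without both epidermis-poor wounds and 209 to 482 with 1 wound left out, the lowest without non-diabetic replicate 1. With the replicate block, 16 genes in all and 0 pathway genes were called. The deviations of same-numbered wounds correlated at -0.27, 0.22, 0.07 and -0.48. The sources used here describe no pairing of these wounds, and whether they share more than a number was not tested. Of the 9 tested members, 6 lay below all other wounds in the epidermis-poor wounds under both other pseudocounts, which keep the order of values, and within their own minipig 6 (diabetic) and 7 (non-diabetic) did, against 20.3% and 31.1% of all tested genes. With 1 minipig per group, no alternative separates diabetes from the animal.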
